A study of Homo sapiens with 24 samples.

Results

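Homologous recombination genes are described here in LNCaP cells after siRNA knockdown of 2 long non-coding RNAs, TAPIR-1 and TAPIR-2. The genes are BRCA1, BRCA2, BARD1, RAD51AP1, RAD54L, XRCC2, BLM and EXO1, 8 of the 20992 genes with a RefSeq name on the array used at 24 h and of the 22439 on the array used at 48 h. They were taken as a list chosen with earlier results of these data known, so counts of called genes are a description. Each gene was measured by the 1 probe whose RefSeq accession belongs to it. LNCaP is an established, androgen-responsive prostate cancer line derived from a lymph node metastasis. All cells, controls included, were electroporated with an siRNA, which was a scrambled control (si-SCRL, called scramble here), si-A1 against TAPIR-1 or si-A2 against TAPIR-2. RNA was taken from 4 biological replicates of each at 24 h and of each at 48 h, and every sample was put on its own one-colour Agilent array. The groups rest on 1 cell line and on 1 siRNA for each transcript, so an effect of a transcript and an effect of its siRNA cannot be told apart.

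Homologous recombination repairs a DNA double-strand break by copying the intact sister chromatid, and it is used mainly in the S and G2 phases of the cell cycle. The broken ends are first cut back to single strands, a protein filament is built on these strands with the help of BRCA1, BRCA2 and their partners, and the coated strand then searches for and invades the matching duplex. The joined molecules are later taken apart by helicases and nucleases. Inherited loss of BRCA1 or BRCA2 function predisposes to breast, ovarian and prostate cancer, and many genes of the pathway are transcribed most in S phase.

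Promoters are shown for the 5 genes called lower at 24 h and for BARD1, which was not. Each line is the 100 bases before the annotated start on GRCh38.p14, taken from RefSeq, written 5' to 3' on the strand of the gene, and capitals mark matches to a searched motif. The windows are chr12:4538790-4538889 on the plus strand for RAD51AP1, chr1:46247588-46247687 on the plus strand for RAD54L, chr15:90717246-90717345 on the plus strand for BLM, chr17:43125365-43125464 on the minus strand for BRCA1, chr1:241848104-241848203 on the plus strand for EXO1 and chr2:214809684-214809783 on the minus strand for BARD1.
RAD51AP1: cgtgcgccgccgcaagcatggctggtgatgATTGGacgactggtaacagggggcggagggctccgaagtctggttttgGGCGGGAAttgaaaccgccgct
RAD54L: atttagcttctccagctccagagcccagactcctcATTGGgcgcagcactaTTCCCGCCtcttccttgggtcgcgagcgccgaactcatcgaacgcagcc
BLM: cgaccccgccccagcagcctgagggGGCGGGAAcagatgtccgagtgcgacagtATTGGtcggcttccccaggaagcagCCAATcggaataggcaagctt
BRCA1: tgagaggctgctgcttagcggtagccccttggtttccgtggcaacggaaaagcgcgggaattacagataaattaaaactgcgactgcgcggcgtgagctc
EXO1: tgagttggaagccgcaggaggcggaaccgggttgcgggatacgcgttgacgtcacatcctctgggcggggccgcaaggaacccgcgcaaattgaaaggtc
BARD1: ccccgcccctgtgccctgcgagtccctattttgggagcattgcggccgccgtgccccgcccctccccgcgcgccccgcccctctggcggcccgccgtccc
The search covered the 250 bases before the start on both strands, with 7 sets of letters. These were the E2F letters TTTCGCGC, TTTGGCGC, TTTCCCGC and GGCGGGAA, the cell cycle homology region (CHR) letters TTTGAA and TTCGAA, and the CCAAT box. The E2F letters TTTCCCGC and GGCGGGAA can overlap, since their opposite strands share bases. The 8 genes had 11 promoters in the table. GGCGGGAA was found before RAD51AP1, RAD54L and BLM, and no other E2F letters were found before any of the 8 genes. BRCA1 and EXO1, whose probes also fell, held none of the E2F letters, and neither did BARD1. Some E2F letters occur in 4.31% of all 35116 promoters and GGCGGGAA in 2.72%. In RAD51AP1 the match lay 15 to 22 bases before the start, in RAD54L 42 to 49 bases and in BLM 68 to 75 bases. The CCAAT letters, which occur in 32% of all promoters, were found before BRCA1, RAD51AP1, RAD54L and BLM, in BRCA1 at 171 to 175 bases before the start and so outside the line shown. CHR letters occur in 14.3% of all promoters and were found before 0 of the 8 genes. A match is a description of the sequence only.

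Each time point filled 12 arrays over 2 slides, each with 2 replicates of every siRNA, and each time point used its own version of the array, so time and array version cannot be told apart. On every slide the siRNAs also kept the same column of arrays, so column and siRNA cannot be told apart. The median background-subtracted intensity of an array was between 24.37 and 57.2 at 24 h, with 58.46% to 71.67% of spots well above background. At 48 h it was between 20.37 and 32.25 on 11 arrays, with 60.28% to 66.48% of spots well above background. The remaining array, si-A2 replicate 2 at 48 h, had a median of 13.95 and a mean correlation of 0.6452 with the other arrays of its group, and it was left out as the study's methods did. All 10 listed LNCaP and luminal prostate genes, among them KLK2 and KLK3, were well above background on every array used. Of 7 fibroblast genes, 0 were well above background on every array and 4 on none at 24 h, while at 48 h 2 of 7, DCN and PDGFRB, were on all 11 arrays and 5 on none. Of 4 endothelial genes, 3 were well above background on every array at 24 h (PECAM1, VWF and CDH5) and 3 at 48 h (VWF, CDH5 and KDR). The immune probes that were present, 5 of 6 at 24 h and 4 of 6 at 48 h, were well above background on every array, as was 1 of 4 basal markers, KRT15, while KRT5 was on none. No fibroblast, immune, endothelial or basal gene was called in any comparison of an siRNA with scramble, and their part in the results was not tested. Of the 10 LNCaP and luminal genes, 2 were called lower under si-A1 at 48 h, against 4.66% of probes. The TAPIR-2 probe at 24 h averaged 5.03 ± 0.185 on the log2 scale in scramble (SD, n = 4), 4.64 ± 0.318 under si-A1 (SD, n = 4) and 4.07 ± 0.743 under si-A2 (SD, n = 4). The si-A2 difference of -0.97 had an exact two-sided permutation p of 0.02857, the smallest that 4 arrays against 4 allow, and a limma adjusted p of 0.2297. At 48 h the TAPIR-2 probe differed from scramble by 0.19 under si-A1 and by 0.05 under si-A2, with exact permutation p-values of 0.8 and 0.9429. A further TAPIR-2 probe, on the 48 h array version, was well above background on 0 of 11 arrays and differed by -0.77 and -0.52 (exact permutation p = 0.1714 and 0.4571). TAPIR-1 itself had no probe that its accession could identify.

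Values below are log2 normalized intensities, listed by replicate number, and they compare arrays for 1 probe, never 1 gene with another. A gene was called at a limma adjusted p below 0.01 together with a log2 change of at least 0.5. A probe that failed to rise well above background throughout a group gives just an upper limit for that group, and such a change is also given as a smallest fold. In a culture, fewer cells of a kind and less RNA per cell cannot be told apart.

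At 24 h, BRCA1, RAD51AP1, RAD54L, BLM and EXO1 were lower after either siRNA, and the BARD1 arrays of all groups overlapped. XRCC2 was lower by more than 0.5, but its adjusted p was not below 0.01. After si-A1, 5 of the 8 genes were called lower, against 1.07% of the 43944 probes tested. After si-A2, the same 5 genes were called lower, against 0.883% of probes. All 4 arrays lay below all scramble arrays for 6 of the 7 genes tested under si-A1, against 5.44% of all probes, and for 6 of 7 under si-A2, against 4.41%. Both comparisons use the same scramble arrays. The median change over all probes tested was 0.05 under si-A1 and 0.05 under si-A2. BRCA2 was not tested, since its probe passed the background threshold on 1 of 12 arrays. The BRCA1 probe passed it on 5 of 12 arrays, which include the 4 scramble arrays, so a gene of this kind could enter the test only by being high in scramble, and the counts are a description. Normexp, another background correction, was run with an offset of 50 added to the intensities, which by itself draws log2 changes of dim probes toward 0. It left the same 5 genes called under both siRNAs but with smaller log2 changes. Under si-A1 they were -0.54 for BRCA1, -0.51 for BLM, -0.94 for RAD54L, -1.21 for EXO1 and -1.77 for RAD51AP1. Under si-A2 they were -0.53, -0.55, -0.96, -1.31 and -1.63 in the same order, and XRCC2 was called as well, at -0.50.

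**Figure D1:**
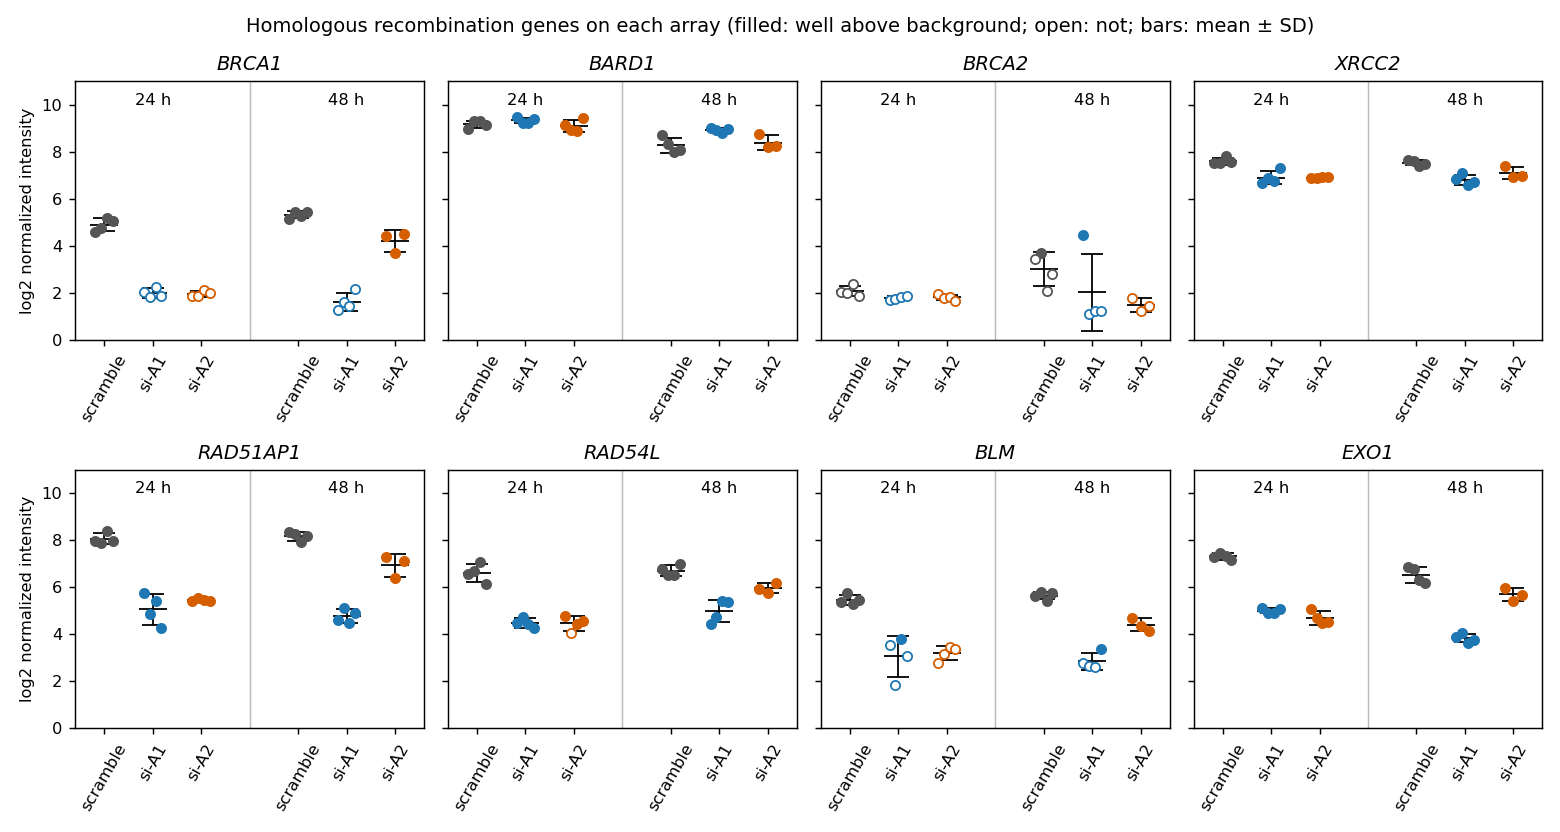
Log2 normalized intensity (vertical axis) of each gene on each array, with scramble in grey, si-A1 in blue and si-A2 in orange at 24 h and 48 h, filled points where the probe was well above background, open points where it was not, and bars for mean ± SD. BRCA1 was between 4.56 and 5.18 in scramble at 24 h and between 1.82 and 2.24 under si-A1, while BARD1 stayed between 8.90 and 9.47 in all 3 groups at 24 h.

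BRCA1 is a ubiquitin ligase that favours cutting back of broken ends. Its levels in scramble at 24 h were 4.56, 4.75, 5.18 and 5.07. They were 2.05, 1.82, 2.24 and 1.85 under si-A1, and 1.86, 1.86, 2.11 and 2.00 under si-A2. No array of either siRNA reached the scramble range, and all 8 were not well above background. Relative to scramble, the log2 change was -2.90 (SE 0.139, adjusted p = 1.204e-05) under si-A1, at least 2.35-fold lower. It was -2.93 (adjusted p = 7.089e-06) under si-A2, at least 1.92-fold lower.

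The BRCA1 probe was spotted 10 times on each array, which shows the spread within an array. At 24 h the median spot had a background-subtracted intensity between 19.55 and 47.91 on the scramble arrays, where 38 of 38 unflagged spots were well above background. It was between 2.99 and 7.33 under si-A1, with 0 of 38 spots well above background, and between 3.00 and 4.54 under si-A2, with 0 of 39. The low level was thus shared by the repeated spots. EXO1 also had 10 spots per array, and its median spot at 24 h was between 106.5 and 228.9 in scramble, between 22.31 and 49.5 under si-A1 and between 17.91 and 28.63 under si-A2.

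**Figure D2:**
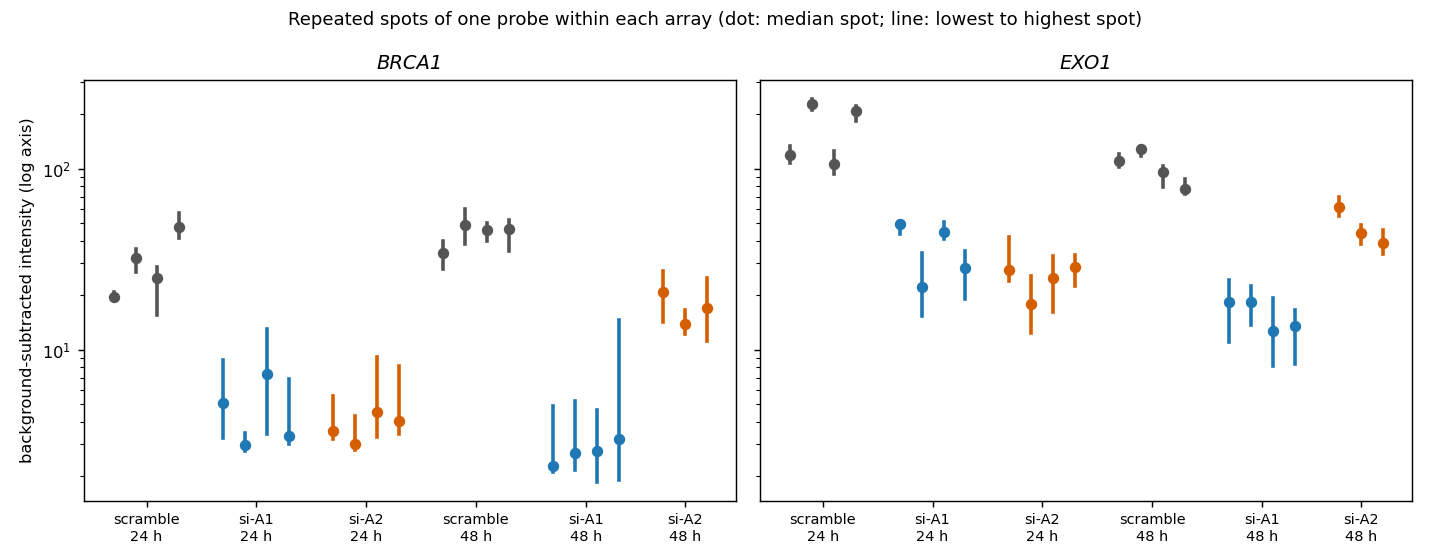
Background-subtracted intensity on a log axis (vertical) of the repeated spots of the BRCA1 and EXO1 probes, with 1 point per array for its median spot and a line from its lowest to its highest spot, by siRNA and time, without si-A2 replicate 2 at 48 h. BRCA1 medians in scramble at 24 h lie between 19.55 and 47.91, above all medians under si-A1, which reach 7.33.

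BARD1 binds BRCA1 and forms the ubiquitin ligase with it. Its levels at 24 h were 8.95, 9.28, 9.28 and 9.14 in scramble, 9.47, 9.23, 9.21 and 9.38 under si-A1, and 9.11, 8.91, 8.90 and 9.41 under si-A2. The 3 groups overlapped. On the log2 scale the change was 0.16 under si-A1 (adjusted p = 0.6725) and -0.08 under si-A2 (adjusted p = 0.8709).

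BRCA2 acts on single-stranded DNA at broken ends, before strand invasion. At 24 h its probe was well above background on 0 of 12 arrays, with levels of 2.03, 1.98, 2.38 and 1.87 in scramble, 1.70, 1.74, 1.80 and 1.85 under si-A1, and 1.95, 1.77, 1.81 and 1.66 under si-A2. A change in BRCA2 was therefore not measurable at 24 h.

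RAD51AP1 promotes invasion of the matching duplex. Its levels at 24 h were 7.99, 7.90, 8.42 and 7.99 in scramble, 5.77, 4.88, 5.41 and 4.25 under si-A1, and 5.42, 5.56, 5.45 and 5.43 under si-A2. The siRNA arrays were all below scramble, with a wider spread under si-A1 than under si-A2. Against scramble the log2 difference was -2.996 (SE 0.28, adjusted p = 0.000246) under si-A1 and -2.61 (adjusted p = 0.0005564) under si-A2.

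RAD54L is a DNA translocase that works during strand invasion. Its levels at 24 h were 6.55, 6.68, 7.09 and 6.16 in scramble, 4.49, 4.74, 4.42 and 4.28 under si-A1, and 4.80, 4.06, 4.46 and 4.57 under si-A2. Every siRNA array lay below every scramble array. The log2 change was -2.14 (SE 0.22, adjusted p = 0.0004334) under si-A1 and -2.15 (adjusted p = 0.000424) under si-A2.

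XRCC2 supports the filament on single-stranded DNA. Its levels at 24 h were 7.51, 7.51, 7.82 and 7.55 in scramble, 6.67, 6.87, 6.74 and 7.31 under si-A1, and 6.86, 6.90, 6.90 and 6.91 under si-A2. The groups did not overlap scramble, and si-A1 replicate 4 was nearest to it. Relative to scramble, the log2 change was -0.70 under si-A1 (adjusted p = 0.03184) and -0.70 under si-A2 (adjusted p = 0.03644), and neither was called.

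BLM is the helicase that takes apart joined molecules and also acts in end resection. Its levels at 24 h were 5.36, 5.77, 5.28 and 5.48 in scramble, 3.56, 1.85, 3.81 and 3.07 under si-A1, and 2.79, 3.15, 3.45 and 3.39 under si-A2. The probe rose well above background on 1 of 4 si-A1 arrays and 0 of 4 si-A2 arrays, and si-A1 replicate 2 was the lowest of all. On the log2 scale the change was -2.40 (SE 0.346, adjusted p = 0.003753) under si-A1. It was -2.28 (adjusted p = 0.005606) under si-A2, at least 2.86-fold lower. With the replicate number as a block the calls were lost, with adjusted p = 0.01399 under si-A1 and 0.01953 under si-A2, and they were also lost in 4 and 9 of the 12 fits that left out 1 array.

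EXO1 is a nuclease of end resection. Its levels at 24 h were 7.28, 7.47, 7.34 and 7.15 in scramble, 5.12, 4.91, 4.91 and 5.10 under si-A1, and 5.09, 4.68, 4.48 and 4.52 under si-A2. All siRNA arrays lay below scramble. Against scramble the log2 difference was -2.30 (SE 0.144, adjusted p = 2.754e-05) under si-A1 and -2.62 (adjusted p = 1.239e-05) under si-A2.

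**Figure D3:**
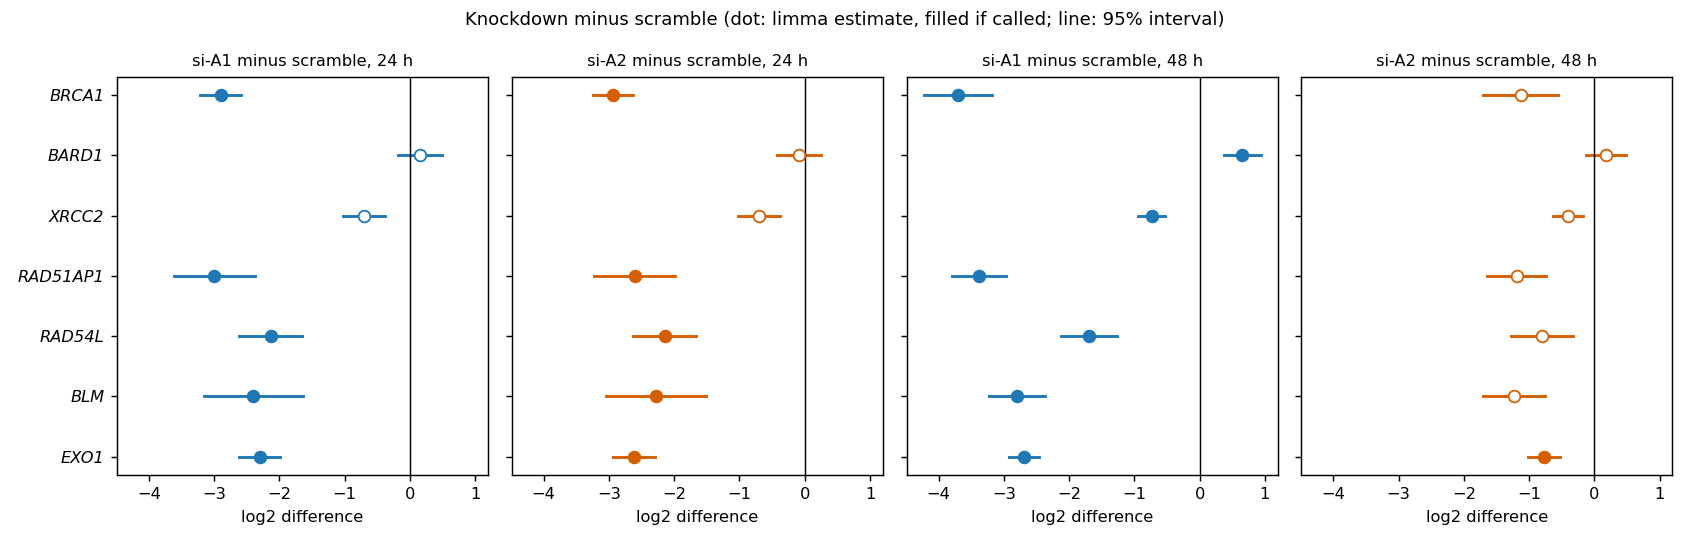
Log2 difference from scramble (horizontal axis) of the 7 genes tested, with the limma estimate as a point, filled where called, and its 95% interval as a line, for each siRNA at 24 h and at 48 h. At 24 h the estimates of both siRNAs for BRCA1 are -2.90 and -2.93, and at 48 h they are -3.71 and -1.13.

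Set directly against each other at 24 h, si-A2 and si-A1 gave no called difference in any of the 8 genes, against 0.419% of probes called in either direction, and 0 of the 7 genes tested had an unadjusted limma p below 0.05. BRCA1 was at background on all arrays of both siRNAs and BLM on 7 of 8, so a difference in these 2 genes was not measurable. The 95% interval of si-A2 minus si-A1 ran from -0.50 to 0.48 for RAD54L and from -0.33 to 0.32 for XRCC2. It ran from -0.58 to 0.10 for BARD1. A wider interval, from -0.23 to 1.01, was that of RAD51AP1, and that of EXO1 was from -0.64 to 0.0016.

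At 48 h, BRCA1, RAD51AP1, BLM and EXO1 were lower with si-A1 than with si-A2. After si-A1, 6 of the 8 genes were called lower, against 4.66% of probes, and 1, BARD1, was called higher, against 2.97% of probes. After si-A2, on 3 arrays, 1 of 8, EXO1, was called lower, against 0.583% of probes, and 6 of the 7 genes tested had an unadjusted limma p below 0.05. For 6 of the 7 tested genes the si-A1 arrays all lay below scramble, against 9.35% of probes, and for 6 of 7 the si-A2 arrays did, against 7.41%. The BRCA1 probe passed the background threshold on 4 of 11 arrays, 3 in scramble, 1 under si-A2 and 0 under si-A1. It entered the test by being high in scramble, so these counts too are a description. With the left-out si-A2 array kept, 1 gene was called under si-A1 and 0 under si-A2. The background threshold of the filter was raised on some arrays by single bright control spots, up to an intensity of 257.1 on si-A2 replicate 1. A threshold from the median and median absolute deviation of the control spots, chosen after seeing the data, left 6 genes called under si-A1 and 0 under si-A2. With normexp the si-A1 changes of the genes called lower ran from -0.52 for XRCC2 to -1.95 for RAD51AP1. Under si-A2 RAD51AP1 was called, at -0.87. EXO1 was not, at -0.41 (adjusted p = 0.005158), only because the change was smaller than 0.5.

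BRCA1 at 48 h was 5.13, 5.44, 5.26 and 5.42 in scramble, 1.25, 1.61, 1.43 and 2.15 under si-A1, and 4.42, 3.67 and 4.50 under si-A2. The si-A1 arrays were all not well above background and the si-A2 arrays lay between the other groups, with no overlap. The log2 change was -3.71 (adjusted p = 2.899e-05) under si-A1, at least 4.29-fold lower, and -1.13 (adjusted p = 0.04457, not called) under si-A2. Of the repeated spots, 40 of 40 in scramble and 2 of 39 under si-A1 were well above background.

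BARD1 at 48 h was 8.71, 8.31, 7.99 and 8.06 in scramble, 9.01, 8.90, 8.81 and 8.96 under si-A1, and 8.73, 8.18 and 8.25 under si-A2. The si-A1 arrays all lay above scramble, and the si-A2 arrays overlapped it. Relative to scramble, the log2 change was 0.65 (SE 0.126, adjusted p = 0.007389) under si-A1 and 0.18 (adjusted p = 0.5313) under si-A2. The si-A1 call was lost with the replicate number as a block (adjusted p = 0.01052) and with the other background threshold (adjusted p = 0.01324), and in 9 of the 11 fits that left out 1 array.

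BRCA2 at 48 h was 3.44, 3.68, 2.09 and 2.81 in scramble, 4.47, 1.11, 1.23 and 1.23 under si-A1, and 1.79, 1.21 and 1.44 under si-A2. The probe rose well above background on 2 of 11 arrays, scramble replicate 2 and si-A1 replicate 1, and it was not tested.

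RAD51AP1 at 48 h was 8.34, 8.26, 7.92 and 8.16 in scramble, 4.63, 5.13, 4.49 and 4.89 under si-A1, and 7.29, 6.39 and 7.11 under si-A2. The groups formed 3 separate ranges. On the log2 scale the change was -3.39 (adjusted p = 2.899e-05) under si-A1 and -1.19 (adjusted p = 0.01555, not called) under si-A2.

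RAD54L at 48 h was 6.78, 6.51, 6.52 and 6.99 in scramble, 4.46, 4.76, 5.40 and 5.39 under si-A1, and 5.94, 5.76 and 6.18 under si-A2. These ranges were also separate. Against scramble the log2 difference was -1.70 (adjusted p = 0.0004507) under si-A1 and -0.80 (adjusted p = 0.07295, not called) under si-A2.

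XRCC2 at 48 h was 7.63, 7.62, 7.41 and 7.47 in scramble, 6.82, 7.09, 6.57 and 6.72 under si-A1, and 7.37, 6.91 and 6.97 under si-A2. Both siRNA groups lay below scramble and overlapped each other. The log2 change was -0.73 (adjusted p = 0.0008909) under si-A1 and -0.40 (adjusted p = 0.06752, not called) under si-A2. Without the slide term the si-A1 call was lost (adjusted p = 0.01163).

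BLM at 48 h was 5.65, 5.79, 5.42 and 5.75 in scramble, 2.79, 2.64, 2.61 and 3.38 under si-A1, and 4.70, 4.36 and 4.16 under si-A2. The probe rose well above background on 1 of 4 si-A1 arrays and on all si-A2 arrays, and the groups did not overlap. Relative to scramble, the log2 change was -2.80 (adjusted p = 3.874e-05) under si-A1 and -1.24 (adjusted p = 0.01639, not called) under si-A2.

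EXO1 at 48 h was 6.86, 6.80, 6.30 and 6.20 in scramble, 3.91, 4.07, 3.64 and 3.77 under si-A1, and 5.97, 5.44 and 5.69 under si-A2. All siRNA arrays lay below scramble. On the log2 scale the change was -2.69 (adjusted p = 7.501e-06) under si-A1 and -0.77 (SE 0.108, adjusted p = 0.008184) under si-A2. The si-A2 call was lost with any 1 of the 11 arrays left out, with the replicate number as a block (adjusted p = 0.02634) and with the other background threshold (adjusted p = 0.01598).

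The direct comparison of si-A2 with si-A1 at 48 h called BRCA1, RAD51AP1, BLM and EXO1 higher under si-A2, 4 of 8 genes, against 1.4% of probes. All si-A2 arrays lay above all si-A1 arrays for 5 genes, against 8.35% of probes, the fifth being RAD54L. The log2 difference was 2.58 (SE-based 95% interval 2.01 to 3.15, adjusted p = 0.001051) for BRCA1, at least 1.98-fold. It was 2.19 (adjusted p = 0.0008043) for RAD51AP1 and 1.92 (adjusted p = 0.0001855) for EXO1. For BLM it was 1.56 (adjusted p = 0.003641), and with the replicate number as a block this call was lost (adjusted p = 0.01274), as it was in 6 of the 11 fits that left out 1 array. RAD54L differed by 0.90 (adjusted p = 0.03521), XRCC2 by 0.33 (adjusted p = 0.09075) and BARD1 by -0.48 (adjusted p = 0.07564), and none of these was called. Without si-A2 replicate 1 the BRCA1 call was lost (adjusted p = 0.01184). With normexp background correction, BRCA1 and BLM differed by 0.34 and 0.31 (adjusted p = 0.006962 and 0.009354). They were not called only because these changes were below 0.5.

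An interaction over 32944 probes present on both array versions compared each effect at 48 h with that at 24 h. The si-A1 effect was called different in 0 of the 8 genes, against 0.213% of probes called in either direction, with 1 gene at an unadjusted limma p below 0.05. BRCA2 was not tested. Under si-A1, at each time, BRCA1 was well above background on 0 of 4 arrays and BLM on 1 of 4. A change of the si-A1 effect was thus not measurable for these 3 genes. The si-A2 effect was called different for 2 of 8 genes, against 0.0425% of probes. For EXO1, well above background on all arrays, it was less negative at 48 h, by 1.88 (SE 0.18, adjusted p = 7.74e-05), and by 0.88 with normexp. For BRCA1 the fitted difference was 2.12 (SE 0.254, adjusted p = 0.001055), but its 24 h level under si-A2 was only a bound. The 48 h change, 2.19-fold lower, was not smaller than that bound of 1.92-fold, so the fit does not show that the BRCA1 effect was smaller at 48 h. The difference was 1.42 for RAD54L (adjusted p = 0.1196), 1.42 for BLM (adjusted p = 0.3617) and 1.39 for RAD51AP1 (adjusted p = 0.2613). It was 0.31 for XRCC2 and 0.28 for BARD1. BLM was well above background on 0 of 4 si-A2 arrays at 24 h, so its 24 h level was also only a bound. For BRCA1 the call was lost with each time point normalized on its own (adjusted p = 0.0111), with scaling to the 75th percentile (adjusted p = 0.01226), without si-A2 replicate 1 at 48 h (adjusted p = 0.01453) and with normexp, where the difference was 0.21 (adjusted p = 0.4677).

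**Figure D4:**
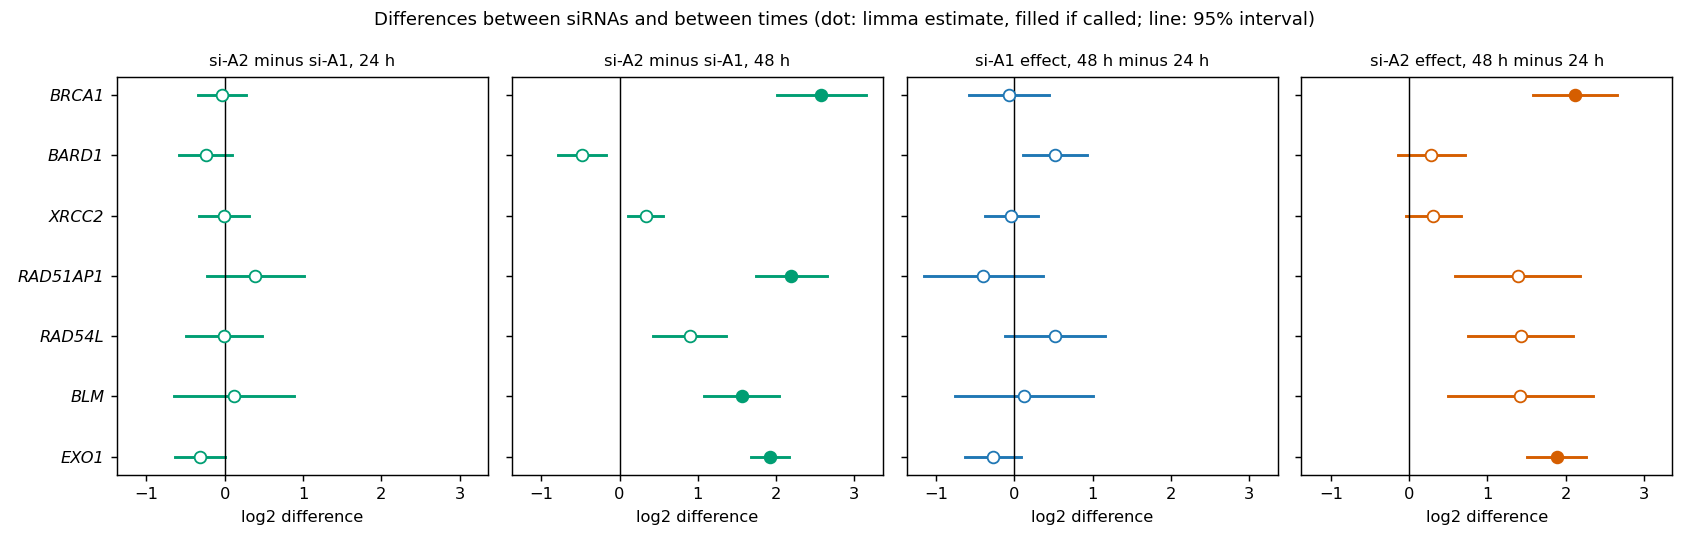
Log2 differences (horizontal axis) with 95% intervals for the 7 genes tested, between the siRNAs at each time and between the times for each siRNA, filled where called. At 24 h the intervals between the siRNAs include 0, with that of RAD51AP1 from -0.23 to 1.01, and at 48 h the BRCA1 level was 2.58 higher with si-A2.

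Of 50 other homologous recombination genes, 5 were called lower under si-A1 at 24 h (median log2 change -0.28), 8 of 50 under si-A2 at 24 h (median -0.34), 19 of 49 tested under si-A1 at 48 h (median -0.35) and 1 of 49 under si-A2 at 48 h (median -0.24). None was called higher in these comparisons, and 21 of the 50 were called in at least 1. The all-probe medians were 0.05, 0.05, 0.05 and 0.01 in the same order, and 1.07%, 0.883%, 4.66% and 0.583% of all probes were called lower. FIGNL1, which takes the filament apart, changed by -1.38, -1.36 and -1.67 in the first 3 comparisons, and MMS22L, which acts at stalled replication forks, by -1.31, -1.12 and -1.66. RMI2, a partner of BLM, changed by -1.33, -1.50 and -1.17. PARPBP, an inhibitor of homologous recombination, was the 1 gene called under si-A2 at 48 h, at -1.64 (adjusted p = 0.005993). In that comparison 0 of the 49 were called with any 1 of the 11 arrays left out. With the replicate number as a block 0 were called as well, and with normexp 5 were. The replication protein RPA3 and the helicase MCM8 were called at 48 h under si-A1, at -1.39 and -2.19. The brightest of the other genes that were not called in any comparison included TONSL, with 0.28 and 0.07 at 24 h, and BABAM1, with -0.03 and 0.09.

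End joining repairs breaks without a template. Of its listed genes, 1 of 15 was called lower under si-A1 and 1 of 15 under si-A2 at 24 h, and at 48 h 3 of 14 under si-A1 and 1 of 14 under si-A2. The shares over all probes were 1.07%, 0.883%, 4.66% and 0.583% in the same order. The gene called each time was POLQ, the polymerase of an end joining route that uses short homologies, which changed by -1.80, -1.75, -2.76 and -1.13. The last call was lost with the replicate number as a block and with only the 2 groups compared, where 0 end joining genes were called. The medians of the end joining genes were -0.18, -0.21, -0.36 and -0.27. XRCC6 and XRCC5, which encode the Ku proteins that bind broken ends, changed by -0.28 and -0.15 under si-A1 at 24 h and were not called.

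At 24 h, and at 48 h under si-A1, most listed S phase genes were called lower too. Of 15 S phase genes, 14 were called lower under si-A1 and 15 under si-A2 at 24 h, and 15 under si-A1 and 2 under si-A2 at 48 h. Their median log2 changes were -1.55, -1.76, -2.02 and -0.88. Over all probes, 1.07%, 0.883%, 4.66% and 0.583% were called lower in the same order. Over the alternatives other than leaving out 1 array, the S phase counts ran from 9 to 14, 9 to 15, 0 to 15 and 0 to 12. The 0 under si-A1 at 48 h came with the dim array kept, and the 12 under si-A2 with normexp. RRM2, which supplies nucleotides for replication, changed by -3.12, -2.88, -3.76 and -1.56, the last not called (adjusted p = 0.0149). Of 12 G2 and mitosis genes, 10 and 8 were called lower at 24 h, and 9 and 5 of 11 at 48 h, with medians of -1.31, -1.26, -2.37 and -1.48. Over the same alternatives the G2 and mitosis counts ran from 2 to 10, 2 to 9, 0 to 9 and 0 to 7. CCNB1, the cyclin of entry into mitosis, was the brightest of this list that was not called. Its brightest tested probe differed by 0.33, 0.26, 0.83 and 0.09 (adjusted p = 0.6271, 0.7634, 0.2041 and 0.9428). The study instead reports lower CCNB1 RNA by qPCR in LNCaP cells at 48 h, and why this probe differs was not tested. CDKN1A, the cell cycle inhibitor p21, differed from scramble by 0.68 under si-A1 (adjusted p = 0.04061, not called) and 1.79 under si-A2 (adjusted p = 9.654e-05) at 24 h, and by 2.10 under si-A1 (adjusted p = 9.242e-05) and 1.22 under si-A2 (adjusted p = 0.0132, not called) at 48 h. The part of the cell cycle in the changes of the homologous recombination genes was not tested.

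**Figure D5:**
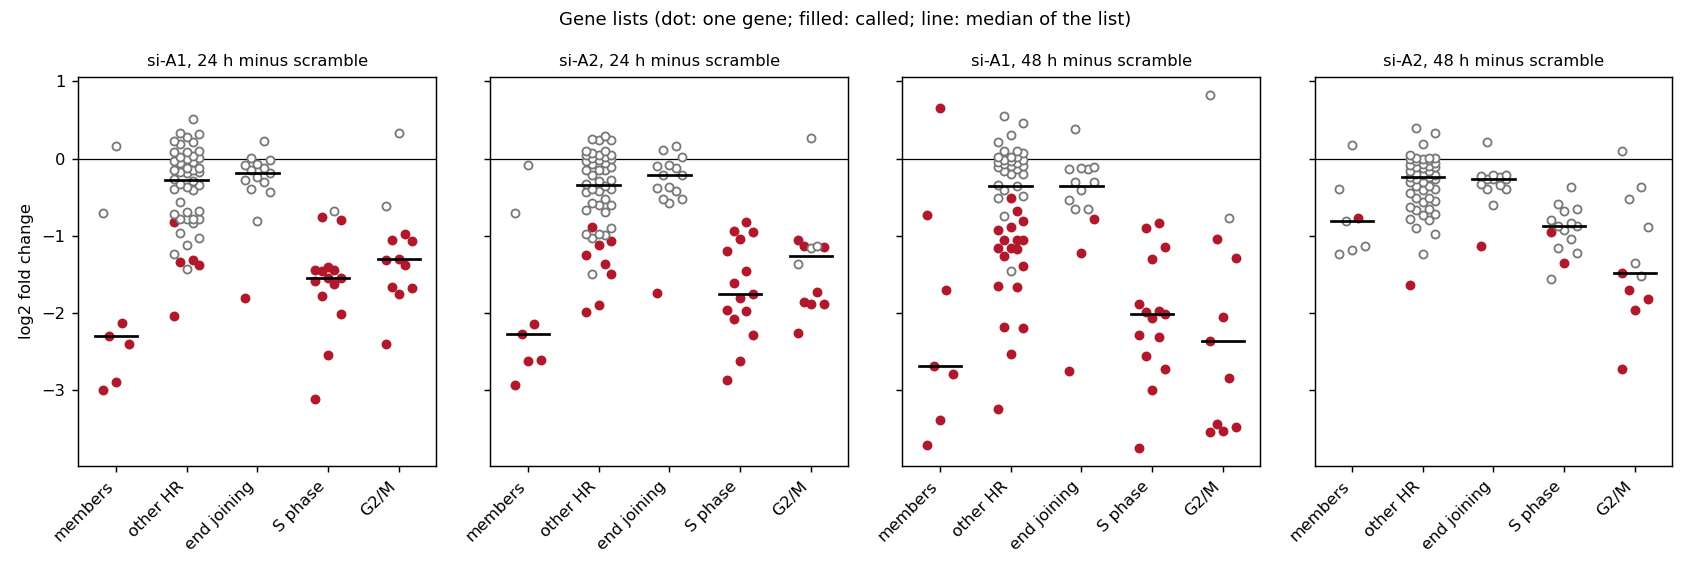
Log2 difference from scramble (vertical axis) of single genes in the 8 genes described here (members), other homologous recombination (HR) genes, end joining, S phase, and G2 and mitosis (G2/M) genes, with filled points where called and a line at the list's median. At 24 h under si-A1 the median was -0.28 for the other homologous recombination genes and -1.55 for the S phase genes.

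Likeness of pattern was measured at 24 h as the root mean square difference from the mean profile of the tested genes over the 12 arrays, each profile taken as deviations from the gene's own mean over these arrays. The 5 nearest named genes were HELLS (0.0876), STIL (0.131), H3C13 (0.134), WDHD1 (0.135) and FANCA (0.135). The genes' own distances ran from 0.271 for RAD54L and 0.344 for EXO1 to 0.607 for XRCC2 and 0.93 for BARD1. HELLS changed by -1.78 under si-A1 and by -1.88 under si-A2 at 24 h.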

How the data were processed

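LNCaP RNA was hybridised to 24 Agilent arrays in 1 colour, of which 23 were used. The authors deposited scanner output in which each spot has an intensity on a linear scale, background-subtracted within the array. The authors also deposited a table of quantile-normalized log2 values, used here as an alternative. The submitters' notes name R 3.4.3, limma 3.34.8 and hg38. The 8 genes, the gene lists and the tests were chosen with earlier results of these data known.

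Within each time point, quantile normalization was applied to log2 intensities, flagged and control spots were left out, and spots of a probe were averaged. Probes were named through RefSeq accessions (57.38% of probes at 24 h, 53.44% at 48 h). Testing required a signal above a threshold, set 3 SDs over the mean of 308 negative controls, on 3 arrays or more, which kept 43944 probes at 24 h and 40857 at 48 h. Models were fitted with limma 3.58.1 in R 4.3.3 (lmFit and eBayes, statmod 1.5.0 for random blocks), with the 3 groups of a time in 1 fit, the slide as an additive term and Benjamini-Hochberg adjustment over all probes. The interaction used all 23 arrays normalized together. Smallest folds set the brighter group's mean against, for each array of the dim group, the higher of the lowest signal well above background and the probe's own signal. The scripts were tested on simulated data. For other homologous recombination, end joining and cell cycle genes, the brightest tested probe of a gene was used. Named genes of these lists were those called with the largest changes and the brightest not called.

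Same-numbered arrays deviated together at 48 h, with correlations of their deviations from 0.2393 to 0.431, and arrays of the same slide with other numbers did so as well (0.1199 to 0.3884), while at 24 h they ran from -0.1528 to 0.1615. With the slide taken out, as in the main fits, the correlations of same-numbered arrays at 48 h ran from -0.257 to 0.03871. The replicate block is given beside each call that it changed among the homologous recombination genes described here. Counts of the other gene lists also moved with this block, and not all of these are given beside the counts. With the block, 5 other homologous recombination genes were called under si-A2 at 24 h. Under si-A2 at 48 h, 1 S phase gene and 2 G2 and mitosis genes were called with it. These counts were lower than in the main fits. The number of arrays and the signal over background limit the precision. Alternatives were other scalings, background corrections, filters, blocks, probe rules and thresholds, and fits that lacked 1 array. Normexp used an offset of 50. The threshold from median and MAD was added after seeing the data. A few listed genes are counted but not named here.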

Additional observations from a re-analysis of the deposited data

Results flagged for a closer look

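Dixon's test was run on 40 groups of 4 arrays, 1 for each gene, siRNA and time, without si-A2 at 48 h, which had 3 arrays. Of these groups, 2 held an array set apart from the other 3 by more than the 95% limit. By chance, about 1 in 20 groups is set apart. XRCC2 in scramble replicate 3 at 24 h was 7.82, above the next array at 7.55. BRCA2 in si-A1 replicate 1 at 48 h was 4.47, while the other 3 arrays were between 1.11 and 1.23. In the limma interaction test the si-A2 effect differed between 48 h and 24 h for EXO1, by 1.88 on the log2 scale. The fitted difference for BRCA1 was 2.12, but BRCA1 was well above background on 0 of 4 si-A2 arrays at 24 h, and with normexp the difference was 0.21 (adjusted p = 0.4677). Time and array version cannot be told apart in both.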

How the results depend on the processing

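With 1 array left out at a time, the number of the 8 genes called ranged from 4 to 5 under si-A1 and from 4 to 5 under si-A2 at 24 h, from 6 to 7 under si-A1 and from 0 to 1 under si-A2 at 48 h, from 2 to 4 for si-A2 minus si-A1 at 48 h, and from 1 to 2 for the si-A2 effect between the times. At 24 h BRCA1, RAD51AP1, RAD54L and EXO1 were called after both siRNAs in all 26 alternatives run, and BLM in 20 under si-A1 and 16 under si-A2. With normexp the sizes fell, for BRCA1 under si-A1 from -2.90 to -0.54. Its offset of 50 by itself draws log2 changes of dim probes toward 0, so the normexp sizes cannot be set beside the others. Under si-A2 at 48 h, 0 genes were called with flagged spots kept, the interquartile range filter, a log2 change of at least 1, no filter, the threshold from median and MAD, no slide term, only the 2 groups compared, or the replicate block. For si-A2 minus si-A1 at 48 h, 2 were called with normexp and 2 with only the 2 groups compared. With the dim array kept, 1 was called under si-A1 at 48 h and 0 in si-A2 minus si-A1 and in the si-A2 effect between the times, where 1 was called with scaling to the 75th percentile, with each time normalized alone and with normexp. The replicate block, the pairing by replicate number, gave 3 for si-A2 minus si-A1 at 48 h. The causes were not tested. Signs turned for small differences that were not called. For si-A2 minus si-A1 at 24 h, BLM was -0.0662 with scaling to the 75th percentile and -0.0376 with normexp, and BRCA1 was 0.0001 with normexp. With the dim array kept, RAD54L was 0.0816 under si-A2 at 48 h, and XRCC2 was -0.90 for si-A2 minus si-A1 at 48 h and -0.83 for the si-A2 effect between the times. For the si-A1 effect between the times, BLM was -0.44 with scaling to the 75th percentile, -0.39 with each time normalized alone and -0.18 with normexp, and EXO1 was 0.13 with normexp. With 1 array left out, si-A2 minus si-A1 at 24 h ran from -0.132 to 0.037 for BRCA1, -0.1233 to 0.155 for RAD54L, -0.0918 to 0.1212 for XRCC2 and -0.2733 to 0.3586 for BLM. The si-A1 effect between the times ran from -0.2291 to 0.0428 for BRCA1, -0.1243 to 0.0756 for XRCC2 and -0.2586 to 0.3782 for BLM. Over all probes, 510 were called under si-A1 and 429 under si-A2 at 24 h, 3118 and 284 at 48 h, and 856 in si-A2 minus si-A1 at 48 h. These ranged over the alternatives from 190 to 661, 210 to 529, 36 to 3386, 0 to 591 and 0 to 958. Low signal limits BRCA1, BRCA2 and BLM, whose levels under si-A1 were mostly bounds.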

Other observations

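On the left-out array, si-A2 replicate 2 at 48 h, the log2 levels were 1.499 for BRCA1, 1.88 for BRCA2, 3.39 for RAD51AP1, 2.20 for XRCC2 and 1.01 for BLM, none well above background. They were 8.17 for BARD1, 9.08 for RAD54L and 6.603 for EXO1, all well above background. The RAD54L value lay above all other arrays of the gene at 48 h, which reached 6.99.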
